A study of Mus musculus with 16 samples.

Results

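Rps3a1 and Rpl26 are intron-containing ribosomal protein genes, and Rps3a3 and Gm15772 are intronless copies of them elsewhere in the mouse genome. These 4 genes, of 55357 in the count table, are described here in 16 liver libraries, 4 from each of 4 groups of mice. They were chosen from values in the same table: Rps3a1 and Rps3a3 because their counts differed in opposite directions between the AUG livers and the other groups, Rpl26 and Gm15772 because theirs differed in opposite directions between 2 mouse lines. Those differences are therefore given as a description, without a p-value.

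AUG livers carried the telomerase RNA genotype written mTERC CUG/AUG, and their wild-type group, labelled WT, is called AUG_WT. The del7 livers carried mTERC 29_35del, a deletion of 7 nucleotides at positions 29 to 35, and their own WT group is called del7_WT. No group was treated. The labels give no strain, age or sex, do not say whether CUG/AUG names a codon change or a pair of alleles, and do not say that the 4 replicates of a group came from separate litters or days, so the p-values measure only the spread between these libraries. In this design AUG_WT and del7_WT are both labelled WT and differ in the mutant named in their titles. AUG and AUG_WT together are called the AUG line here, and del7 and del7_WT the del7 line.

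Rps3a1 codes for a component of the small subunit of the ribosome, and Rpl26 for a component of the large subunit. Every growing or secreting cell, the hepatocyte included, makes these proteins in near-equal amounts to build ribosomes. Rpl26 protein has also been described as a factor that binds the mRNA of the tumour suppressor Trp53. A processed pseudogene, or retrocopy, arises when an mRNA is copied into DNA and inserted at another place, so it lacks introns and usually lacks the parent's promoter. Ribosomal protein genes have many such copies in mammalian genomes, most of them with little or no RNA in most tissues.

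By the reference annotation, Rps3a1 (ENSMUSG00000028081.7) lies on chromosome 3 with 6 exons, and Rps3a3 (ENSMUSG00000059751.8) on chromosome 13 as a processed pseudogene of 1 exon. Rpl26 (ENSMUSG00000060938.15) lies on chromosome 11 with 4 exons in its main transcript, and Gm15772 (ENSMUSG00000062353.7) on chromosome 5 as a processed pseudogene of 1 exon. Positions are not given because the reads were aligned to GRCm39 and the annotation used here for names and transcripts (GENCODE M21) is of GRCm38.

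The copies are nearly letter-for-letter matches of the coding part of their parents. A read that lies within that part must cover a differing letter to be told from the partner. Rps3a3 is annotated over 795 bases, as long as the coding part of Rps3a1 with its stop codon, and matches it at 98.9% of bases. The 9 differences, parent first and counted from 1 at the first base of the start codon, are T216C, T260C, C363T, A427T, T534C, G582T, A660G, C762T and G792A. Of these, 7 keep the amino acid and 2 change it (T260C and A427T), and the copy's frame is open over all 264 codons before the stop. Windows around 6 of the 9 are shown, with the differing base in capitals: window 1 holds bases 206 to 270, window 2 bases 353 to 437 and window 3 bases 524 to 592.
Rps3a1, window 1: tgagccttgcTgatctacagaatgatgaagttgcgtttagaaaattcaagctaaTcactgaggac
Rps3a3, window 1: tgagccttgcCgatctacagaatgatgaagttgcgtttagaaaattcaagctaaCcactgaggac
Rps3a1, window 2: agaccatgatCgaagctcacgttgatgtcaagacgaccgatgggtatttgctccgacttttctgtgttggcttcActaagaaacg
Rps3a3, window 2: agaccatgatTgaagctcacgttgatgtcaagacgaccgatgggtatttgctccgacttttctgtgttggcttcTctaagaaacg
Rps3a1, window 3: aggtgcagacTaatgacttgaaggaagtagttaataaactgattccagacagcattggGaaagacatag
Rps3a3, window 3: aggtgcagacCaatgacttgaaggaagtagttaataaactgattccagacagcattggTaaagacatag

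Gm15772 is closer still to its parent. Its 438 annotated bases match the coding part of Rpl26 at 99.5%, with 2 differences, C177T and T288C. Both keep the amino acid, so the open frame of 145 codons reads as the same protein as Rpl26 in the reference. Both differences fall in bases 157 to 308, again in capitals.
Rpl26: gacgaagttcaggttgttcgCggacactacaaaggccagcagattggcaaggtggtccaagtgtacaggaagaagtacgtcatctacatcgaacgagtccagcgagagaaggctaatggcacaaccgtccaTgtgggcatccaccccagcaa
Gm15772: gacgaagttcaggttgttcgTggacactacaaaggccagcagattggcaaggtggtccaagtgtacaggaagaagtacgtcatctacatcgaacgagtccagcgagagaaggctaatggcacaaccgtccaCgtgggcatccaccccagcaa
These letters are the reference's. The bases that the 16 livers carry at these positions were not analysed here.

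**Figure D1:**
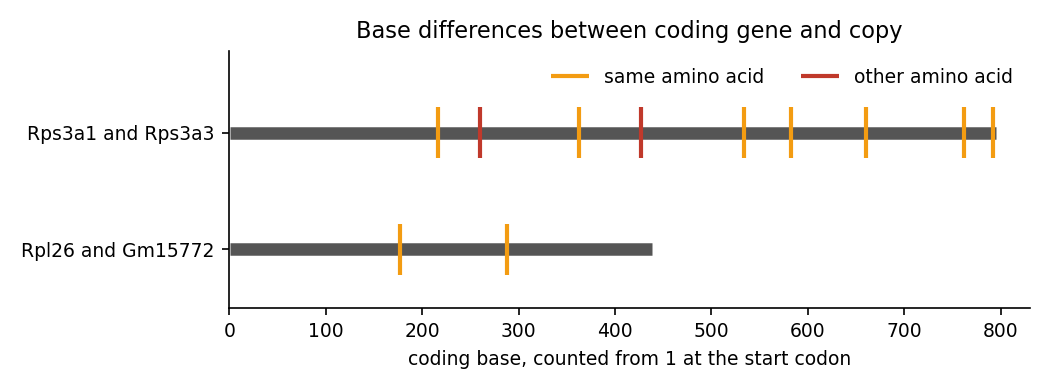
Positions at which each retrocopy differs from the coding part of its parent gene, counted in bases from 1 at the start codon, with colour for whether the amino acid stays the same. Rps3a3 has 9 differences over 795 bases and Gm15772 has 2 over 438, so the longest identical runs are 215 and 176 bases.

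The pairs thus leave long runs where gene and copy cannot be told apart by sequence. Between Rps3a1 and Rps3a3 the identical runs within the coding part ranged from 3 to 215 bases, the longest from base 1 to base 215. Between Rpl26 and Gm15772 they were 176, 110 and 150 bases. Outside the coding part, the Rps3a1 transcript has 133 bases before the start codon and 49 after the stop, and the Rpl26 transcript has 47 and 41, which the annotated copies do not hold. The deposited tables count reads placed at 1 position and set multimapping reads apart, so the split of reads between gene and copy is uncertain. The sum of each pair is given beside its members, since a read placed on the wrong member stays in the sum. Reads set apart as multimapping are missing from the sum as well, so it does not remove the uncertainty.

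How much of each transcript is shared depends on the read length, which the sources used here do not give. For stretches of 50 bases, 39.9% of those in Rps3a1 and 49.6% of those in Rps3a3 were also in the partner, and 60.6% of those in Rpl26 and 74.3% of those in Gm15772. For stretches of 150 bases the shares were 7.97% and 10.2% for Rps3a1 and Rps3a3, and 7.43% and 9.69% for Rpl26 and Gm15772. Counting any other gene of the reference, and not the partner alone, raised the shares at 50 bases to 71.0% for Rps3a1, 65.2% for Rps3a3, 71.3% for Rpl26 and 91.5% for Gm15772. Gm15772 was thus the member with the most shared sequence at 50 and 75 bases.

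**Figure D2:**
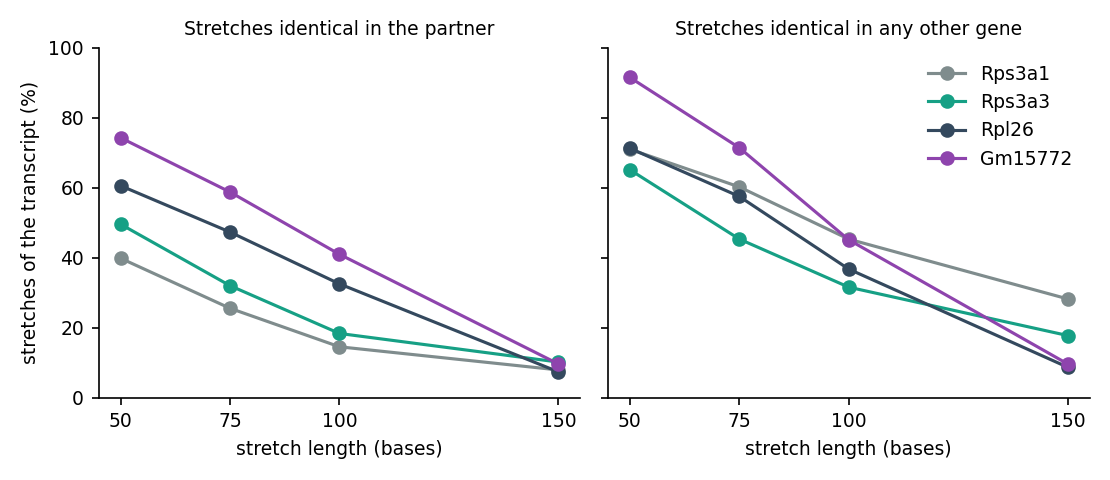
Share of all stretches of 50, 75, 100 and 150 bases (x axis) of each transcript, in percent (y axis), that also occur in the pair's other member (left) or in any other annotated gene (right). All 4 members fall with length, for the partner from 39.9% to 74.3% at 50 bases to 7.43% to 10.2% at 150 bases.

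The libraries held 7714058 to 14629022 reads counted in genes, and multimapping reads made up 12.4% to 13.3% of the AUG libraries, 9.23% to 13.8% of AUG_WT, 10.9% to 12.5% of del7 and from 10.2% up in del7_WT, so the groups overlapped. All 7 hepatocyte markers were detected, with a summed level of 42923 to 153046 CPM (reads of a gene per 1000000 reads counted in genes, on TMM-scaled library sizes). AUG_WT replicates 1 and 2 stood apart over the whole table: their smallest chi-square per gene with any other library was 104.8 and 64.2, against at most 47.0 among the other 14 libraries. Replicate 1 had the lowest hepatocyte sum and the highest sums of B, T and plasma cell markers (655 CPM) and of dividing cell markers (354 CPM). Replicate 2 had the highest hepatocyte sum, with 331 CPM of B, T and plasma cell markers and 24.2 CPM of dividing cell markers. The other 14 libraries ranged from 91774 to 121359, from 34.1 to 154 and from 6.39 to 22.4 CPM in the 3 sums. In bulk tissue, fewer cells of a type and less RNA per cell cannot be told apart. For the genes below, 1 other library, del7 replicate 3, stood apart from its group, and its hepatocyte (108559 CPM), B, T and plasma cell (37.9 CPM) and dividing cell sums (7.59 CPM) lay within the range of the other libraries.

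Rps3a1 had few reads in the AUG livers and many in the other 3 groups. Its counts in AUG replicates 1 to 4 were 211, 136, 186 and 200. The AUG_WT livers held 1641, 752, 736 and 1333. Those of del7 held 1063, 900, 997 and 643, and those of del7_WT 938, 800, 650 and 879. The AUG livers were the 4 lowest of the 16, and the other 3 groups overlapped one another.

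Scaled to library size, Rps3a1 was at 16.7 ± 1.96 CPM in AUG (SD, n = 4), 94.1 ± 20.2 in AUG_WT, 83.1 ± 9.67 in del7 and 75.8 ± 7.86 in del7_WT. From AUG_WT to AUG that is a log2 fold change of -2.50 (SE 0.16), 5.64-fold lower. Without AUG_WT replicates 1 and 2 it was -2.49. From del7 to AUG it is -2.32 (SE 0.16), 4.98-fold lower. These contrasts share the AUG livers and both were used to choose the pair. In AUG against AUG_WT, 0.0277% of the 14421 genes tested differed at an adjusted p under 0.05 (edgeR's quasi-likelihood test, Benjamini-Hochberg), 0.0208% higher in AUG and 0.00693% lower. The latter is Rps3a1 alone, which was chosen for this difference, so its call is a description.

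Rps3a3 was the mirror image, with reads in every AUG liver and next to none elsewhere. AUG replicates 1 to 4 held 570, 374, 485 and 622 counts. AUG_WT held 4, 3, 0 and 1, del7 held 0, 0, 2 and 0, and del7_WT held 1, 0, 0 and 0. No liver outside AUG exceeded 4 counts, so the groups did not overlap.

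The AUG mean was 46.5 ± 5.12 CPM (SD, n = 4). Pooled over the group, AUG held 2051 counts and AUG_WT 8, which scaled to library size is a ratio of 270 (137 to 626, an exact 95% interval for counting error only). Against del7, with 2 counts, the ratio was 1018 (282 to 8415). The low side of these ratios rests on very few reads, which the width of the intervals shows.

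Per kilobase of exon, the copy was above its parent in the AUG livers, at 58.4 CPM per kilobase for Rps3a3 against 17.1 for Rps3a1. The share of the pair's reads that fell on Rps3a3 was 73.0% in AUG replicate 1 (exact 95% interval 69.7 to 76.1), 73.3% in replicate 2 (69.3 to 77.1), 72.3% in replicate 3 (68.7 to 75.6) and 75.7% in replicate 4 (72.6 to 78.6). The 4 intervals overlap, and the mean was 73.6 ± 1.47% (SD, n = 4), or 2.61 to 3.11 reads of the copy for each read of the gene. In AUG_WT the share was 0.243%, 0.397%, 0 and 0.0750%. Across del7 and del7_WT, 6 of 8 livers had 0 reads of the copy, which allows a share of up to 0.467%, and the others had 0.200% and 0.106%.

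**Figure D3:**
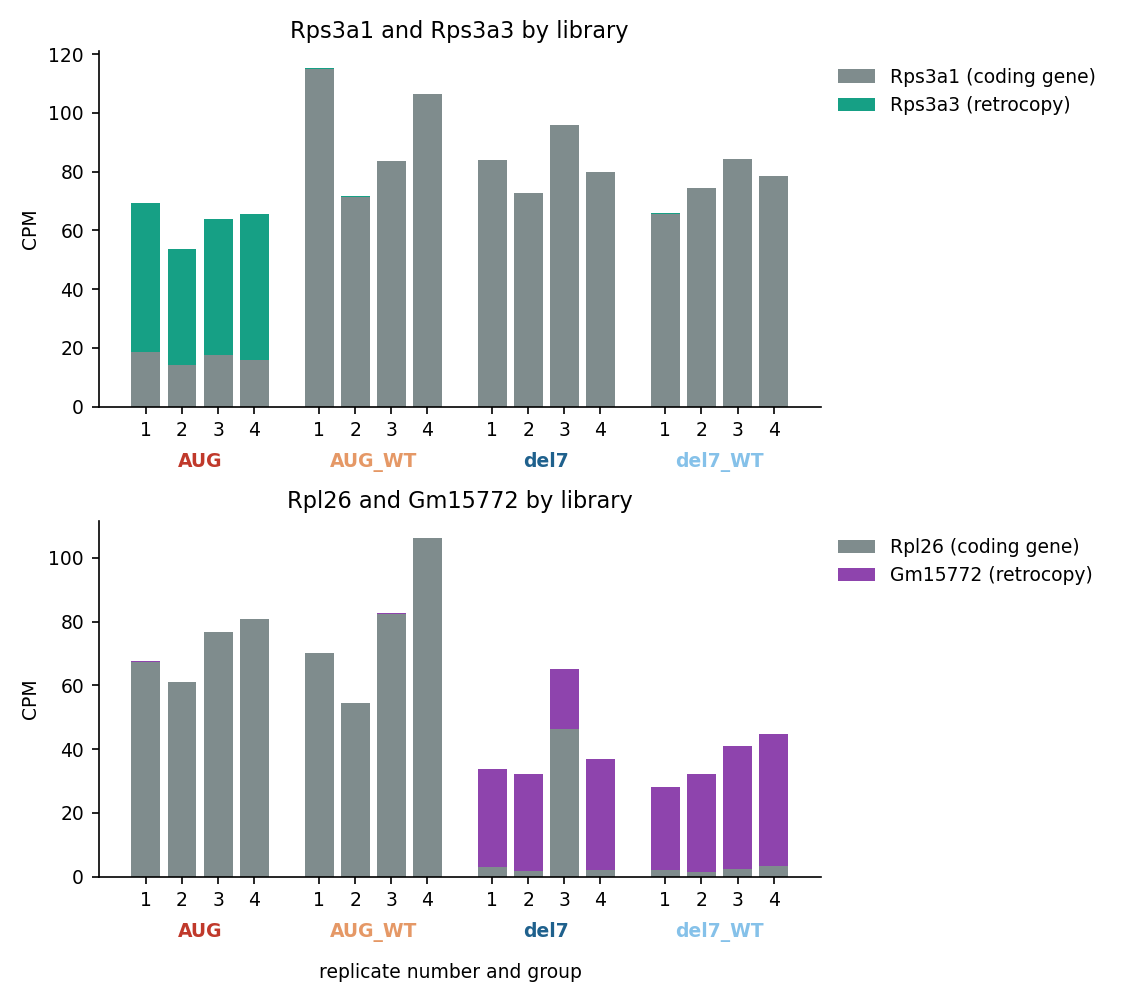
Level in CPM (y axis) of each coding gene and its retrocopy, stacked, in the 16 libraries by replicate number and group (x axis). Rps3a3 fills most of the 4 AUG bars, and Gm15772 fills most of the del7 and del7_WT bars except del7 replicate 3, which holds 46.2 CPM of Rpl26 and 18.8 CPM of Gm15772.

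Counted reads of gene and copy together were lower in AUG than in AUG_WT. Reads that fit both places are not in this sum, so whether the copy made up for the gene was not tested. The gene stood at 16.7 CPM in AUG against 94.1 in AUG_WT, and the copy at 46.5 against 0.161. The sum of both was 69.4, 53.7, 63.8 and 65.6 CPM in AUG replicates 1 to 4, against 115, 71.6, 83.7 and 106 in AUG_WT, 84.0, 72.6, 96.0 and 80.0 in del7 and 65.8, 74.3, 84.4 and 78.6 in del7_WT. All 4 AUG livers lay below the 4 AUG_WT livers, and the highest AUG liver was above the lowest of del7_WT.

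The group sums were 63.1 ± 6.74 CPM in AUG, 94.3 ± 20.2 in AUG_WT, 83.2 ± 9.76 in del7 and 75.8 ± 7.83 in del7_WT (SD, n = 4). On the log2 scale the sum differed by -0.58 (SE 0.15) between AUG and AUG_WT and by -0.40 (SE 0.15) between AUG and del7, far less than Rps3a1 alone. AUG and AUG_WT did not overlap in the sum, nor did AUG and del7, which held for 2.05% and 5.08% of all genes tested. Without AUG_WT replicate 1, the difference of the sum from AUG_WT was -0.46, and without AUG_WT replicates 1 and 2 it was -0.57.

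Between the livers that lacked reads of the copy, Rps3a1 did not separate. The del7 livers and del7_WT livers differed by 0.13 in log2 (SE 0.15, 95% interval -0.18 to 0.45, edgeR adjusted p = 1). This pair was chosen because AUG stood apart from the other groups. That choice favours similar values in del7 and del7_WT, so the test is not independent of it. For the sum of the pair the difference was also 0.13 (SE 0.15, -0.18 to 0.45, edgeR adjusted p = 1). Rps3a3 had 2 counts in del7 and 1 in del7_WT, a ratio of 2.02 with an interval of 0.105 to 119, so no difference was detectable at this depth. The values of del7 and del7_WT overlapped for all 4 members, as they did for all but 4.01% of genes. Of all genes tested, 0% passed an adjusted p of 0.05 in this contrast (0 by edgeR, 1 by DESeq2), and 1.92% had an unadjusted p under 0.05. The 2 wild-type groups differed by 0.31 in Rps3a1 (SE 0.15), with overlapping values.

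Rpl26 divided the livers by mouse line and not by telomerase RNA genotype. Its counts were 759, 580, 808 and 1014 in AUG replicates 1 to 4, and 1001, 574, 726 and 1331 in AUG_WT. The del7 livers held 40, 23, 481 and 17, and the del7_WT livers 31, 15, 19 and 38. The 8 livers of the AUG line were all above the 8 of the del7 line, and del7 replicate 3 alone came near them.

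In CPM, Rpl26 was at 71.6 ± 9.01 in AUG, 78.3 ± 21.9 in AUG_WT and 2.36 ± 0.828 in del7_WT (SD, n = 4). The del7 mean of 13.3 ± 21.9 rests on replicate 3, at 46.2 CPM, and was 2.38 ± 0.691 over the other 3 livers. AUG_WT was above del7_WT by 5.05 in log2 (SE 0.88), 33.2-fold, and by 5.31 without AUG_WT replicates 1 and 2. AUG was above del7 by 2.43 (SE 0.75), 5.37-fold, by 4.89 without del7 replicate 3, and by 3.86 with limma voom in place of edgeR. These contrasts chose the pair. In the comparison of wild types 0.0347% of genes passed an adjusted p of 0.05, and in AUG against del7 0.0416% did.

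Gm15772 was present where Rpl26 was low. The del7 livers, in replicate order, held 387, 376, 196 and 280 counts of it, and the del7_WT livers 369, 330, 297 and 461. AUG held 2, 0, 0 and 0, and AUG_WT held 0, 0, 1 and 1. No liver of the AUG line exceeded 2 counts, and no liver of the del7 line was under 196, which was the count in del7 replicate 3.

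The means were 28.7 ± 6.86 CPM in del7 (31.9 ± 2.53 without replicate 3, n = 3) and 34.1 ± 7.08 in del7_WT (SD, n = 4). Pooled, del7_WT held 1457 counts and AUG_WT 2, which gives a ratio of 765 (211 to 6323). For del7 against AUG the counts were 1239 and 2, a ratio of 624 (172 to 5157). Per kilobase of exon Gm15772 was at 77.8 CPM in del7_WT, against 1.63 for Rpl26. The union of exons of Rpl26 is 1444 bases long and its main transcript 526, so by the main transcript its level per kilobase would be higher.

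The share of Gm15772 in the reads of its pair was 92.2%, 95.7%, 94.0% and 92.4% in del7_WT replicates 1 to 4, a mean of 93.6 ± 1.60% (SD, n = 4). In del7 it was 90.6% in replicate 1 (exact 95% interval 87.5 to 93.2), 94.2% in replicate 2 (91.5 to 96.3), 29.0% in replicate 3 (25.6 to 32.5) and 94.3% in replicate 4 (91.0 to 96.6). Replicate 3 held 2.45 reads of the gene for each read of the copy, while the other 7 livers of the line held 9.68 or more reads of the copy for each read of the gene. In AUG and AUG_WT the highest share was 0.263%. Del7 replicate 3 was thus intermediate, with both members at levels far above those of the group in which each was lacking.

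**Figure D4:**
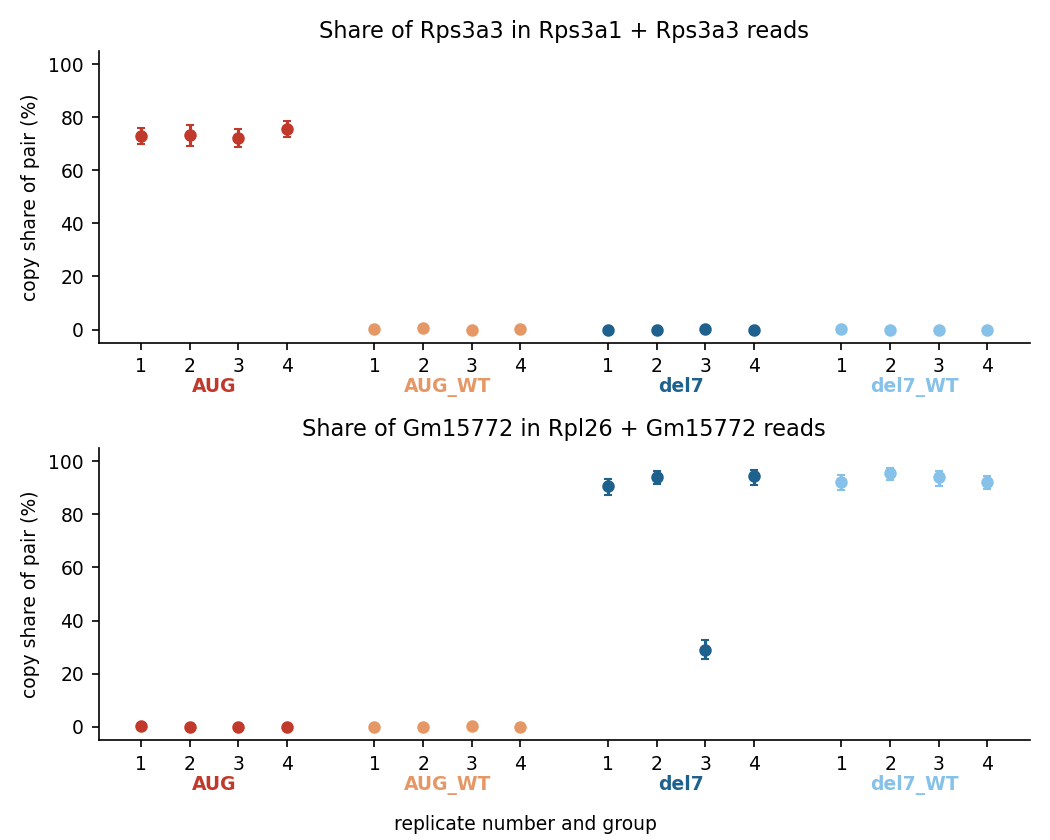
Share of the retrocopy in the reads of its pair (y axis, percent) in each library by replicate and group (x axis), with exact 95% intervals as bars. Rps3a3 holds 72.3% to 75.7% in AUG and at most 0.397% elsewhere, while Gm15772 holds 90.6% to 95.7% in the del7 line except 29.0% in del7 replicate 3.

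The tested genes whose log2 CPM rose and fell most closely with Rpl26 over the 16 libraries were Becn1 (Pearson r 0.88), A930033H14Rik (0.87) and Crybg2 (0.86). These correlations are a description over libraries that share a line, and del7 replicate 3 was among the libraries that picked these genes, so their counts there are no separate evidence about it. Becn1 had 501 counts in that library, within the del7 range of 336 to 570. A930033H14Rik had 117 counts and Crybg2 131 counts in del7 replicate 3, each the highest of del7, where the lowest libraries had 13 and 17. Gm17746, whose r with Rpl26 was -0.89, had 4 counts there, the lowest of del7, against 28 to 52 in del7_WT. Gm5182, which followed Gm15772 most closely (0.90), had 18 counts there, also the lowest of del7.

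The sum of Rpl26 and Gm15772 was lower in the del7 line. It was 67.7, 61.0, 76.9 and 80.9 CPM in AUG replicates 1 to 4, and 70.2, 54.4, 82.6 and 106 in AUG_WT. In del7 it was 33.7, 32.2, 65.0 and 37.0, and in del7_WT 28.02, 32.1, 41.0 and 44.6. The wild types did not overlap, and del7 overlapped AUG only through replicate 3.

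The group sums were 71.6 ± 8.99 CPM in AUG, 78.4 ± 21.9 in AUG_WT, 42.0 ± 15.5 in del7 (34.3 ± 2.42 without replicate 3) and 36.4 ± 7.70 in del7_WT. AUG_WT exceeded del7_WT by 1.11 in log2 (SE 0.24), beside 3.53% of all genes whose 2 wild-type groups did not overlap. AUG exceeded del7 by 0.77 (SE 0.24), and by 1.06 without del7 replicate 3. In this pair the sum differed between lines by far less than either member did.

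The mutant groups were then compared with their own wild types. These contrasts did not choose the pair by themselves. A pair chosen for differing between lines is favoured to be similar within a line, so these tests are not independent of the choice. In AUG against AUG_WT, Rpl26 differed by -0.13 in log2 (SE 0.70, 95% interval -1.66 to 1.40, edgeR adjusted p = 0.971) and the sum by -0.13 (SE 0.24, -0.65 to 0.39, edgeR adjusted p = 0.889). Gm15772 held 2 counts in each group, a ratio of 1.05 with an interval of 0.0764 to 14.5. No difference passed the test, and the intervals span both directions.

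In del7 against del7_WT, Rpl26 was higher by 2.50 in log2 (SE 0.85, 95% interval 0.65 to 4.34, unadjusted p = 0.00999, edgeR adjusted p = 1), which does not pass the test. That value rests on 1 library: without del7 replicate 3 it was 0.023, and with all libraries it was 1.10 by limma voom. Gm15772 differed by -0.25 (SE 0.26, -0.82 to 0.32, edgeR adjusted p = 1). The sum differed by 0.21 (SE 0.24, -0.32 to 0.73, edgeR adjusted p = 1), and by -0.087 without del7 replicate 3. The log2 difference of Rpl26 between AUG and AUG_WT, less that between del7 and del7_WT, was -2.63 (SE 1.10) in 1 model, with an edgeR adjusted p of 0.864.

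For every member, nearly all reads came from the annotated strand. Over the 16 libraries, counting on the opposite strand gave 5 reads for Rps3a1, 1 for Rps3a3, 7 for Rpl26 and 0 for Gm15772, and at most 3 in any library. Counting without regard to strand changed a count by at most 2, 1, 3 and 0 reads. The copy shares therefore stood as given under either way of counting.

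Other copies of the same parents had few reads. Of the reference genes whose transcripts matched Rps3a1 at 85% identity or more over a large part of its length, 8 besides Rps3a3 were in the table, and none had enough reads to be tested. They held 64 counts in all 16 libraries together, Gm13408 43 of them, Gm5586 9, Gm8960 7 and Gm7600 3. By group these other copies summed to 15 counts in AUG, 18 in AUG_WT, 13 in del7 and 18 in del7_WT. Rps3a2, a copy on chromosome 14 with 99.5% identity and 4 mismatches to the Rps3a1 transcript, was named after its values were seen and had 1 count.

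For Rpl26, 14 copies besides Gm15772 matched, none tested, with 39 counts in all, Gm10136 18 of them, Gm19620 9, Gm11826 5 and Gm8253 4. With every copy added, the Rps3a family stood at 63.5 ± 6.83 CPM in AUG, 94.7 ± 20.1 in AUG_WT, 83.4 ± 9.77 in del7 and 76.2 ± 7.995 in del7_WT (SD, n = 4). The Rpl26 family stood at 71.7, 78.7, 42.2 and 36.8 CPM in the same order. Adding the other copies moved no group by as much as 1 CPM.

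Introns of Rps3a1 host small nucleolar RNAs, which guide chemical marks on ribosomal RNA and are released from the spliced intron. Snord73a had 14 counts in the 16 libraries, 7 in AUG, 3 in AUG_WT, 1 in del7 and 3 in del7_WT. The gene named Rnu73b had 47, in the same order 5, 15, 19 and 8. Neither had enough reads to be tested, so they add no information on the level of the host transcript.

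The other ribosomal protein genes did not move as Rps3a1 and Rpl26 did. Of 79 listed cytosolic ribosomal protein genes 78 were tested. In the full edgeR model, beside Rps3a1 none passed the adjusted p of 0.05 in any of the 4 contrasts. Rpl26 between the wild types passed by DESeq2 and by limma voom. By edgeR it passed with no filter, with the 2 groups alone, and without del7 replicate 2 or del7 replicate 3. It did not pass by edgeR with unstranded counts, RLE scaling, the replicate block or any other library left out. In AUG against del7, Rpl26 passed by limma voom and by edgeR without del7 replicate 3, and in no other alternative. Both contrasts chose Rpl26, so these calls are a description. In AUG against AUG_WT the 76 other than Rps3a1 and Rpl26 had a median log2 fold change of -0.23, with 74 below 0, beside a median of -0.038 over all genes tested. In the same contrast markers of some other cells lay lower in AUG, and none was called. Medians were -2.33 for B, T and plasma cell genes (7 of 7 below 0), -3.05 for dividing cell genes (3 of 3) and -1.97 for erythroid genes (6 of 6). Bile duct (-0.96, 4 of 5) and stellate cell markers (-0.15, 4 of 5) leaned lower too. Hepatocyte (0.10, 6 of 7 above 0), Kupffer cell (0.10, 5 of 6) and endothelial markers (0.083, 5 of 5) leaned higher. The B, T and plasma cell median was 0.077 without AUG_WT replicate 1, the dividing cell median 0.30 and the erythroid median -2.34. Without AUG_WT replicate 1 the median of the 76 was -0.090 with 61 below 0, and without AUG_WT replicates 1 and 2 it was -0.21 with 74 below 0. The part of cell make-up in this shift was not tested. The lowest of them was Rps10 at -0.69, so Rps3a1 at -2.50 lay far below all of them. Rps15a (-0.52) and Rps24 (-0.38) came next at the low end, Rps2 (0.065) and Rpl37a (-0.0050) were near the high end, and none of these 5 passed the test.

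In AUG against del7 the 76 genes had a median of -0.064 and ranged from -0.72 (Rps10) to 0.17 (Rpl21), with Rps3a1 at -2.32 and Rpl26 at 2.43. Between the wild types the median was 0.24, with 74 above 0, and the highest was Rps10 at 0.84, with Rpl26 at 5.05. There the B, T and plasma cell markers had a median of 2.54 (7 of 7 above 0) and the dividing cell markers 3.09 (3 of 3). The erythroid markers had 1.98 (6 of 6) and the Kupffer cell markers 0.58 (6 of 6). Bile duct (-0.26, 5 of 5 below 0), hepatocyte (-0.28, 6 of 7), endothelial (-0.12, 3 of 5) and stellate cell markers (-0.015, 3 of 5) leaned lower, and no marker was called. Without AUG_WT replicate 1 the medians were 0.57 for B, T and plasma cell, -0.23 for dividing cell, 2.18 for erythroid and 0.23 for Kupffer cell markers. The median of the 76 was 0.10 without AUG_WT replicate 1, with 66 above 0, and 0.23 without AUG_WT replicates 1 and 2, with 76 above 0. In del7 against del7_WT the median was 0.075 and the highest was Rps10 at 0.86. AUG and AUG_WT share libraries across these contrasts, so the values stand side by side and are not separate evidence.

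**Figure D5:**
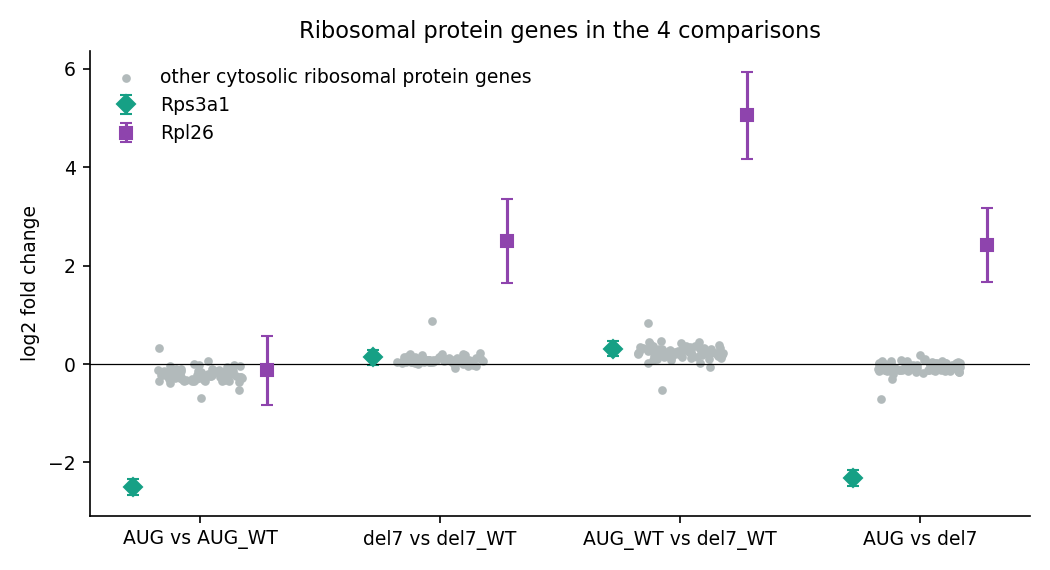
Log2 fold change (y axis) of 78 tested cytosolic ribosomal protein genes in the 4 contrasts (x axis), with Rps3a1 and Rpl26 marked and drawn with their standard errors. Rps3a1 lies at -2.50 and -2.32 where AUG is compared and Rpl26 at 5.05 between the wild types, while the other genes lie between -0.72 and 0.86.

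By level per kilobase, the parents moved through the order of the 79 ribosomal protein genes. Rps3a1 was 17th from the top in AUG_WT, 18th in del7 and del7_WT, and 65th in AUG. Rpl26 was 32nd in AUG and 37th in AUG_WT, 72nd in del7 and 76th in del7_WT. These levels use the union of exons, 1444 bases for Rpl26 against 526 in its main transcript. By the main transcript its level would be higher, and ranks on that length were not examined. The median of the list was 40.2 CPM per kilobase in AUG, 49.6 in AUG_WT, 42.5 in del7 and 40.1 in del7_WT.

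Genes of ribosome assembly and quality control showed no called change. All 22 listed genes were tested, and 0 passed in any contrast by edgeR. Their median log2 fold change was -0.090 in AUG against AUG_WT, 0.065 in del7 against del7_WT, 0.21 between wild types and 0.011 in AUG against del7. The medians over all genes in the same order were -0.038, 0.00014, 0.033 and -0.0018. The sign of the list's median rested on AUG_WT replicate 1: without it the median was 0.14 in AUG against AUG_WT and -0.037 between wild types. In AUG against AUG_WT the lowest were Trp53 (-0.52), its target and cell cycle inhibitor Cdkn1a (-0.31) and the nucleolar methyltransferase Fbl (-0.30). The highest were Polr1b (0.26), a subunit of RNA polymerase I, Ltv1 (0.21), a factor of small subunit assembly, and Bysl (0.11), another such factor.

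Genes on either side of each member in the reference order were examined, 3 tested genes a side where the reference has them. Around Rps3a3 the 6 neighbours (Smim15, Ercc8, Pde4d, Plk2, Gpbp1 and Mier3) ranged from -0.68 to 0.082 in AUG against AUG_WT, with 0 called. Around Rps3a1 they were Fam160a1, Glt28d2, Sh3d19, Lrba, Dclk2 and Cd1d2, from -1.02 to 2.96. Cd1d2, a polymorphic pseudogene of the lipid-presenting Cd1 family, was the highest of these (adjusted p = 0.0791 by edgeR). In AUG against del7, Cd1d2 was higher by 4.56 in log2 with an edgeR adjusted p of 0.00371, the only neighbour of a member called in a contrast.

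Around Rpl26 the neighbours Pik3r6, Myh10, Ndel1, Arhgef15, Slc25a35 and Rangrf ranged from -0.37 to 0.98 between the wild types, with 0 called. Gm15772 had 3 tested neighbours, Cdk6, Fam133b and 1700109H08Rik, which ranged from -0.049 to 0.27 in that contrast. The large differences of Rpl26 and Gm15772 were therefore not shared by the tested genes beside them.

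Several genes ran alongside the first pair over the 16 libraries. Closest to Rps3a3 was Hist1h2al, a processed pseudogene that also lies on chromosome 13 (Pearson r 0.97), with 212 counts in AUG and 1 in each of the other groups. Eif3j2 followed (0.88), with 161 counts in AUG, 32 in AUG_WT, all in 1 library, 4 in del7 and 3 in del7_WT, and then Cd1d2 (0.87), with 128, 17, 5 and 19. Closest to Rps3a1 were Scnm1 (0.90) and 6330549D23Rik (0.84), both on chromosome 3, and Epcam (0.81). Scnm1 had 46 to 72 counts in the AUG libraries and 63 to 132 elsewhere, a far smaller difference than that of Rps3a1.

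At the other end, Rps3a1 ran opposite to Hist1h2al (-0.96) and to Rps3a3 (-0.96), and Rps3a3 opposite to Rps3a1 and to Scnm1 (-0.89). Rpl26 ran opposite to Gm15772 (-0.92). Gm15772 ran with Gm5182 (0.90), Rtn4rl1 (0.87) and Dcdc2a (0.86) and opposite to Brip1os (-0.92). Each r is over 16 libraries that share lines and groups, and no p-value is attached.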

How the data were processed

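RNA was measured in 16 mouse livers, 4 in each of 4 groups taken from the titles and genotype labels. Per the labels' protocols, libraries were made from 10 mg of tissue and 550 ng of total RNA after ribosomal RNA depletion, with a kit that keeps the strand. Per the submitters' processing notes, cutadapt 2.10 and STAR 2.7.9a were used with GRCm39. Annotation release and read length are not given in the sources used here. Read counts per gene, whole and not normalized, were deposited by the authors. The counts analysed, those of the series table, were identical to the reverse-strand column of each per-sample table (16 of 16), and 0 columns were left unmapped. Of 55357 genes, 52081 were named from GENCODE M21.

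The rows for unmapped reads (2.82% to 3.93%), reads at several places (9.23% to 15.0%) and reads outside genes (21.8% to 35.0%) stayed out of library sizes and tests. Genes with low counts were removed (filterByExpr, minimum count 10), which left 14421, all 4 members among them, or 14419 with each pair summed into 1 row. A filter of this kind passes a gene that is high in only 1 group. Counts were fitted in edgeR 4.0.16 (R 4.3.3) with TMM scaling and the quasi-likelihood test, in 1 model of 4 group means with 12 residual degrees of freedom, and p-values were adjusted over all genes tested by the Benjamini-Hochberg method. Log2 CPM use a prior count of 2, and fitted fold changes use edgeR's own default. CPM are counts per 1000000 on TMM-scaled library sizes. Ratios of pooled counts and copy shares have exact 95% intervals, and a count of 0 allows up to 3 counts. These cover counting error only. The fit was tested on simulated counts. Reference transcripts were compared with blastn 2.17.0 (at least 85% identity), and stretches by exact match.

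The 4 members, the gene lists and the comparisons were chosen with earlier results of these data known. Named beside the members are up to 4 other copies per pair by total count, the 3 tested genes with the highest and the 2 with the lowest Pearson r, the 3 nearest tested genes a side, and list members past the threshold or among the 3 highest and 3 lowest. One list member is not reported here. The alternatives were unstranded counts, edgeR's RLE scaling, no filter, DESeq2 1.42.0, limma 3.58.1 (voom), the 2 groups alone, the replicate number as a block, leaving out each library and, chosen after seeing the data, leaving out AUG_WT replicates 1 and 2 together. The closest libraries (del7 replicate 3 and del7_WT replicate 3) differed by a chi-square of 9.20 per gene, so none was counted as a repeat.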

Additional observations from a re-analysis of the deposited data

Results flagged for a closer look

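A sample was set apart where its gap to the nearest of the other 3, divided by the range of its group, exceeded Dixon's 95% critical value for 4 samples. Of 32 sets of 4 values examined, 9 held such a sample. The rule's rate of 1 in 20 is for separate sets of normally spread values. These sets share libraries and counts, and any count beside 0 in the other libraries exceeds the value, so the rates cannot be compared. In 6 of the 9, the value was 1 or 2 counts against 0 in the other libraries: Rps3a3 at 0.192 CPM in del7 replicate 3 and 0.0701 CPM in del7_WT replicate 1, Gm15772 at 0.178 CPM in AUG replicate 1, and the copy shares of 0.200%, 0.106% and 0.263% in those libraries. The other 3 are all del7 replicate 3, with Rpl26 at 46.2 CPM, the sum of Rpl26 and Gm15772 at 65.0 CPM and the Gm15772 share at 29.0%. Its hepatocyte marker sum (108559 CPM) lay inside the range of del7 (91774 to 118006 CPM). The part of tissue make-up in these values was not tested.

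The log2 difference of Rps3a1 between AUG and AUG_WT, less that between del7 and del7_WT, was -2.63 (SE 0.21). Its cause was not tested. This value passed edgeR's test, but Rps3a1 was chosen for its difference in AUG, so it is a description.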

How the results depend on the processing

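Of the 24 fold changes of members and sums, 15 are in contrasts that chose the members and 9 were tested. None of the 9 passed the threshold in the full model, in any of the 7 alternatives or with any of the 16 libraries left out. The choice of the pairs used values of all 4 groups, so these 9 are not independent of it. With limma voom, Gm15772 in AUG against AUG_WT was -0.15 (2 counts a group), Gm15772 between the wild types -8.77 (edgeR -9.28) and Rps3a3 there 1.48 (edgeR 2.43). Rpl26 in AUG against del7 was 3.86 by voom (edgeR 2.43), and in del7 against del7_WT 1.10 (edgeR 2.50). Genes called by edgeR in AUG against AUG_WT were 4 (DESeq2 9), in del7 against del7_WT 0 (DESeq2 1), between the wild types 5 (DESeq2 70, unstranded counts 3, no filter 11, the 2 groups alone 13) and in AUG against del7 6 (DESeq2 50, the 2 groups alone 31). The cause of these was not tested. With AUG_WT replicates 1 and 2 left out together, an alternative chosen after seeing the data, Gm15772 was -0.87 in AUG against AUG_WT and -8.35 between the wild types, Rps3a3 was 9.66 and 0.76 in the same contrasts, and 32 genes were called in AUG against del7. In the fit of 2 groups alone, members at next to 0 in both were filtered out and gave no value.

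Replicate numbers are shared between groups, but same-numbered samples did not deviate together throughout (correlations -0.157 to 0.351 in AUG against AUG_WT, 0.0919 to 0.283 in del7 against del7_WT), and a sample correlated best with its own number in 1 of 4 and 3 of 4 cases. With the replicate number as a block, genes called between the wild types fell to 1, Rps3a1 in AUG against AUG_WT was -2.49, Rpl26 in AUG against del7 3.19, and Rpl26 in del7 against del7_WT 1.82 (edgeR adjusted p = 1). It changed no call of a tested member.

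Leaving out 1 library at a time gave ranges. In AUG against AUG_WT they were -2.28 to 0.59 for Gm15772, -0.26 to 0.057 for Rpl26 and for its sum, 7.70 to 8.43 for Rps3a3, and 3 to 5 genes called. In del7 against del7_WT they were -1.59 to 2.33 for Rps3a3 and -0.087 to 0.32 for the Rpl26 sum. Between the wild types they were -9.82 to -8.86 for Gm15772, 1.99 to 3.99 for Rps3a3, and 1 to 10 genes called. In AUG against del7 they were -11.31 to -8.57 for Gm15772, 2.05 to 4.89 for Rpl26 (highest without del7 replicate 3), 9.25 to 12.02 for Rps3a3, and 5 to 21 genes called. The copy share ranged from 72.9% to 74.0% for Rps3a3 in AUG, from 71.3% to 93.0% for Gm15772 in del7 and from 92.9% to 94.0% in del7_WT. In the groups where a copy had 4 counts or fewer a library, shares were at most 0.24% and their order between groups changed with the library left out. Depth limits the members at 0 to 4 counts a library in a group, whose fitted folds rest on very few reads.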
